A study of Mus musculus with 42 samples.

Results

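The odorant receptor (OR) genes Olfr166 to Olfr209 of mouse chromosome 16 were examined for their responses to 2 odorants and for their position in the nose. Members were all genes with a name of Olfr and a whole number in the range Olfr166 to Olfr209, pseudogene names excluded, that are listed in each of the 9 deposited tables. There were 33 such genes among 1088 intact ORs (1087 in the table of dorsal and ventral tissue). The number range was chosen with the responses of Olfr186 and Olfr196 to TMT already known, so those 2 responses are not independent of the choice.

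The measurements came from C57BL/6 mice (C57BL/6J in the study's methods) of postnatal days 20 to 22 and of both sexes, with 3 mice in each group. They were held for 1 h with no odor or with acetophenone (ACT) or the thiazoline TMT at starting concentrations of 0.01, 0.1, 1 or 100% (v/v). These percentages describe the liquid placed with the mice, and the concentration that reached the receptors is not known. ACT is an aromatic ketone used widely as a test odorant, and TMT (trimethylthiazoline) is a compound of fox feces that is aversive to mice. In pS6-IP-Seq, ribosomes carrying phosphorylated S6, a mark of recently active neurons, were precipitated from the olfactory epithelium and their RNA was sequenced. A replicate number marked littermates of 1 sex, and the 0.01 and 0.1% groups of an odorant shared 3 no odor libraries while the 1 and 100% groups shared another 3. In addition, dorsal and ventral pieces of the mucosa were each sequenced in 3 libraries, from total RNA by the study's methods, although the protocol in the labels repeats the pS6-IP text for these samples.

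ORs are seven-transmembrane receptors that couple to a stimulatory G protein, and each mature olfactory sensory neuron expresses a single OR gene from a single allele. OR genes lie in tandem clusters that grew by duplication, so neighbors are often close paralogs. Neurons expressing a given OR are confined to a band of the epithelium between the dorsal and the ventral end. A precipitated OR transcript is therefore read as a sign that the neurons expressing this OR were active, although in such tissue samples a change in the number of contributing cells and a change in RNA per cell cannot be told apart.

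Of the 33 members, 32 could be placed in the GRCm38 annotation (GENCODE M21), and all of these lie on chromosome 16 in 2 groups. Olfr166 to Olfr171 (6 genes) lie at chr16:19483694-19629916, a span of 146.2 kb, and the 26 placed genes of Olfr172 to Olfr209 lie at chr16:58759544-59363993, a span of 604.5 kb. Olfr176 was not placed. By the MOR family names that RefSeq lists as synonyms, the first group holds MOR270 (Olfr166), MOR272 (Olfr167), MOR271 (Olfr168) and MOR273 (Olfr169, Olfr170 and Olfr171). The second group holds 7 genes of MOR184, 8 of MOR183 and 10 of MOR182, while Olfr176 and Olfr192 have no such name. Olfr186 lies at chr16:59025797-59030291 and Olfr196 at chr16:59166647-59170454, both on the minus strand and both of MOR183. Olfr192 and Olfr197 are annotated as polymorphic pseudogenes, and Olfr180 overlaps Olfr181 on the same strand.

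To show how alike or unlike the receptors are, the same 99 bases of coding sequence are given for 13 members, read from the GRCm38 genome by the coordinates of the annotated coding exons. The stretch starts at the codon of the conserved cysteine at the outer end of the third membrane span and runs past its inner end, and the capitals mark the codons of the aspartate-arginine-tyrosine (DRY) motif, which in this receptor class contacts the G protein. Olfr186, Olfr196, Olfr193, Olfr187 and Olfr183 are shown for MOR183, the family of both TMT responders named in the choice of the range. Olfr172, Olfr173, Olfr177 and Olfr180 are shown for MOR184, Olfr204 and Olfr205 for a near-identical pair of MOR182 and Olfr170 and Olfr171 for MOR273.
Olfr186, chr16:59027519-59027617, minus strand: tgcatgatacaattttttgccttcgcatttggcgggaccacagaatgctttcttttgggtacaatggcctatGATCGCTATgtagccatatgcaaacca
Olfr196, chr16:59167755-59167853, minus strand: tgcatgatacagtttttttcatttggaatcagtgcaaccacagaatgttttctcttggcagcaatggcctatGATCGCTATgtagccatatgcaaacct
Olfr193, chr16:59110222-59110320, minus strand: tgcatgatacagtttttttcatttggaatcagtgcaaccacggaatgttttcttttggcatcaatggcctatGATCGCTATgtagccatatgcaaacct
Olfr187, chr16:59036352-59036450, minus strand: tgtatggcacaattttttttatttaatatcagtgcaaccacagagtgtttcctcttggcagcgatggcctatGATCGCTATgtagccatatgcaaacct
Olfr183, chr16:58999975-59000073, plus strand: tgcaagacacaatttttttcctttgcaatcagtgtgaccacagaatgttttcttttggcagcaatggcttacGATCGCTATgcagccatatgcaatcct
Olfr172, chr16:58760788-58760886, minus strand: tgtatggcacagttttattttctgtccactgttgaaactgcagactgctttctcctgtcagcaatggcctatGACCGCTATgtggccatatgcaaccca
Olfr173, chr16:58797458-58797556, minus strand: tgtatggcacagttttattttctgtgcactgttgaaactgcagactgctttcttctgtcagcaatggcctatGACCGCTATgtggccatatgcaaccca
Olfr177, chr16:58872762-58872860, minus strand: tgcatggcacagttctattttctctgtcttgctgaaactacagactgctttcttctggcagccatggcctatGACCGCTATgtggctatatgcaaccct
Olfr180, chr16:58916253-58916351, minus strand: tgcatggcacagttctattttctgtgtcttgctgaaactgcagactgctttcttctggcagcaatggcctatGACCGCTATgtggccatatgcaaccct
Olfr204, chr16:59315022-59315120, minus strand: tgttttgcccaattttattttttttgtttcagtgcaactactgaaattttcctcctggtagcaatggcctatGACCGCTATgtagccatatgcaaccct
Olfr205, chr16:59329124-59329222, minus strand: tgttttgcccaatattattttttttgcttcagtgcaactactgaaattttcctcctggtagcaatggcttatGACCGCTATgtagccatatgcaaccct
Olfr170, chr16:19606280-19606378, minus strand: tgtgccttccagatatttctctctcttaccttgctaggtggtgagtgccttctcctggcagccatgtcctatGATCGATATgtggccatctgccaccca
Olfr171, chr16:19624712-19624810, minus strand: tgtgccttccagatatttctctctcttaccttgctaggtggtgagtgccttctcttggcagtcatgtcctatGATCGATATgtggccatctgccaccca

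In this stretch Olfr196 and Olfr193 differed from each other at 3 of the 99 positions, while both differed from Olfr186 at 17. Olfr183, a MOR183 gene, differed from Olfr186 at 18 positions and from Olfr196 at 12. Olfr172 and Olfr173 differed at 2 positions, Olfr204 and Olfr205 at 3, and Olfr170 and Olfr171 at 2, whereas Olfr170 differed from Olfr186 at 45. Over the whole coding sequence (915 to 963 bases in the 32 placed genes), Olfr186 had no close relative among the members: its nearest was Olfr196 with 77.8% identical bases. Several other members came in near-identical pairs, such as Olfr170 and Olfr171 (97.1%), Olfr199 and Olfr201 (96.9%), Olfr190 and Olfr192 (96.9%), Olfr191 and Olfr193 (96.4%), Olfr194 and Olfr203 (96.3%), Olfr172 and Olfr173 (96.04%) and Olfr204 and Olfr205 (94.2%).

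**Figure D1:**
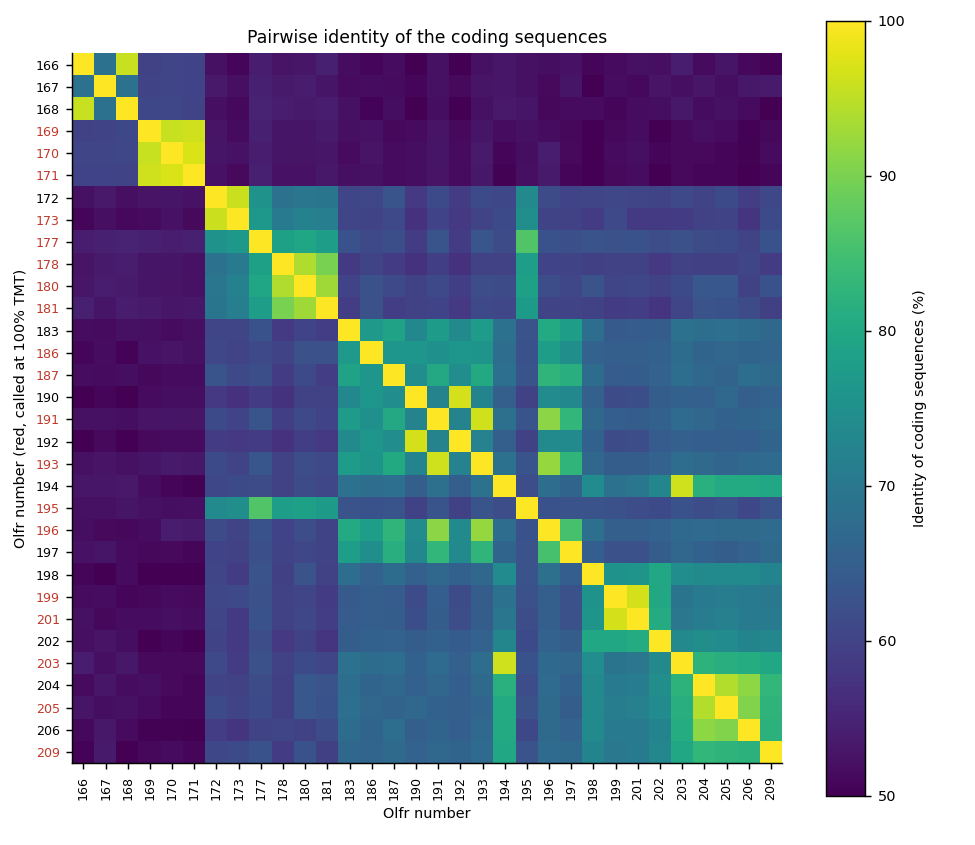
Percent identity of coding sequences between each pair of the 32 placed members, in number order on both axes, with the color scale in percent and the names of the members called at 100% TMT in red. The bright blocks are the near-identical neighbors, such as Olfr169, Olfr170 and Olfr171 at 95.9 to 97.1%, and the row of Olfr186 holds no value above 77.8% off the diagonal.

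Because the reads of near-identical genes can be assigned to either copy, the share of each transcript's 50-base words that also occur in the transcripts of other genes was computed. This share was 0% for Olfr186, 0.862% for Olfr187, 4.12% for Olfr177, 4.21% for Olfr196 and 10.7% for Olfr173. It was 18.1% for Olfr205, 19.4% for Olfr169, 29.2% for Olfr171, 34.6% for Olfr203, 40.8% for Olfr170 and 41.2% for Olfr192, so the values of those genes are less certain.

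OR counts per pS6-IP library ran from 37012 to 128805, and the members held 2.24 to 4.43% of them. Levels are given as normalized counts, which are counts per 100000 OR counts after scaling by trimmed means (TMM). In the 12 no odor libraries the median member stood at 36.3 normalized counts, against 42.8 for the median OR, and 15 of the 33 members were at or above the latter. The highest were Olfr166 with a median of 368.9 (298.5 to 617), Olfr169 with 340.1 (107 to 533.4) and Olfr168 with 255 (156.5 to 470.6), and their ranges overlapped. Per kilobase of annotated exon, the order of those 3 was Olfr169 (136.9 normalized counts per kb), Olfr168 (115.6) and Olfr166 (84.2), and Olfr171 stood at 88.4. Olfr186 had a median of 70.3 normalized counts (26.5 to 106.8), or 30.1 per kb, and Olfr196 had 58.9 (39.2 to 82.7), or 34.4 per kb. At the low end were Olfr197 with 14.0 (4.82 to 26.1), Olfr172 with 1.82 (0 to 6.08) and Olfr176 with 0 in each library.

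Olfr176 had 45 reads in 1 library, that of litter 3 at 0.1% TMT, and 0 in all other libraries of either kind, so it is given no fold change, although the likelihood ratio test and the fit without litter 1 called it at 0.1% TMT. Olfr172 had 57 reads in all 36 pS6-IP libraries together, and its fitted changes, which lay at an end of the members' range in most comparisons, are not read. Every other member except Olfr194 (35 of 36) had reads in each pS6-IP library.

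Some ACT libraries stood apart from the other libraries of their table. In litter 1 at 0.01% ACT, 12 of the 33 members had a value over 2 times the highest of the other 5 libraries (and of at least 20 normalized counts), as did 124 of 1088 ORs (11.4%). In litter 1 at 1% ACT, this held for 7 of the 33 members (Olfr173, Olfr177, Olfr186, Olfr187, Olfr193, Olfr196 and Olfr205) and for 32 of 1088 ORs (2.94%). In litter 3 at 100% ACT it held for 74 ORs (6.80%) but for 0 members. No TMT or no odor library held more than 1 such member. What set the ACT libraries apart was not tested, and results that rest on them are given with and without the libraries of litter 1 at 0.01 and 1% ACT.

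**Figure D2:**
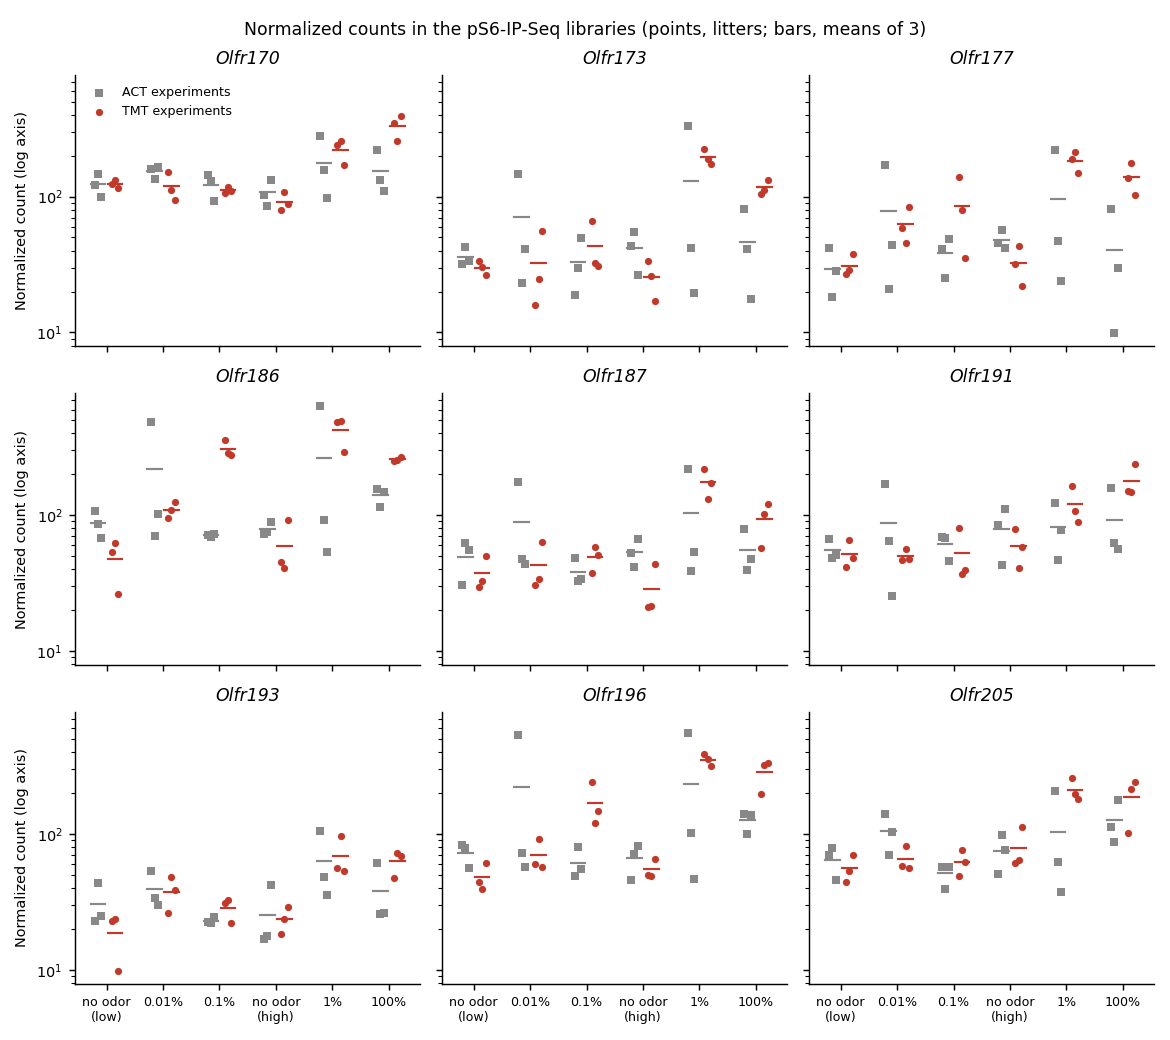
Normalized counts (log axis) of the 9 members called at 1% TMT in every pS6-IP library, by odorant and concentration, with each no odor group beside the concentrations it was measured with; points are single libraries and bars the means of 3. Under TMT Olfr186 and Olfr196 lie above their no odor libraries from 0.1% on, and under ACT single libraries of litter 1 stand far above their group.

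The first comparison asked which members were enriched in the active neurons after TMT, at each concentration against the no odor littermates. The number of members that rose grew from 1 at 0.01% TMT to 3 at 0.1%, 9 at 1% and 19 at 100%, and 0 members fell at any concentration (at an unadjusted p under 0.05, 1 was lower at 0.01% and 0 at the others, and DESeq2 called 0 lower). Of all intact ORs, 0.368% rose and 0.0919% fell at 0.01%, 1.38% rose and 0.643% fell at 0.1%, 4.69% rose and 0.184% fell at 1%, and 11.6% rose and 3.31% fell at 100%. The members' shares that rose were 3.03, 9.09, 27.3 and 57.6% in the same order. These shares include Olfr186 and Olfr196, whose responses were known when the range was chosen. Olfr186 was the only member that rose at 0.01%, and both were among the 3 that rose at 0.1%. The median log2 fold change over the members was 0.33 at 1% and 1.14 at 100%, against -0.04 and -0.08 over all ORs. Calls were made at an adjusted p under 0.05 by edgeR's quasi-likelihood test with Benjamini-Hochberg adjustment over all intact ORs, with the litter as a block, and ± gives the SE of a log2 fold change.

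Olfr186 rose at 0.1% TMT, while its call at 0.01% depended on the test and on the litters. Its normalized counts were 53.7, 62.8 and 26.5 in the 3 no odor litters, 96.1, 109.5 and 124.3 at 0.01% TMT, and 359.3, 286.8 and 280.1 at 0.1% TMT. All 3 libraries of 0.01% lay above all 3 of no odor, and all 3 of 0.1% above both. The library of litter 1 at 0.1% TMT has conflicting labels, since its stimulant is given as 0.1% TMT while its description points to the 1% table. It was used as 0.1%, as the study's code does, and it held the highest 0.1% value of Olfr186, Olfr196 and Olfr177. The log2 fold change was 1.23 ± 0.33 at 0.01% (edgeR adjusted p = 0.0479) and 2.74 ± 0.26 at 0.1% (edgeR adjusted p = 1.85e-22), a 6.67-fold rise. The call at 0.01% was lost when any 1 litter was left out, with the likelihood ratio test, with DESeq2 and without the litter block. In the 1 and 100% experiment, its counts were 45.6, 40.9 and 92.4 in the no odor litters, 486.7, 495.4 and 291.2 at 1%, and 251.7, 255.1 and 266.4 at 100%. These are log2 fold changes of 2.82 ± 0.27 (7.07-fold) and 2.13 ± 0.29 (4.39-fold).

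Olfr196, of the same family, had 44.3, 39.2 and 61.3 normalized counts with no odor, 59.7, 91.7 and 57.3 at 0.01% TMT, and 240.0, 120.3 and 148.9 at 0.1%. At 0.01% its libraries overlapped with no odor, and at 0.1% they did not (log2 fold change 1.78 ± 0.27, edgeR adjusted p = 7.39e-09). In the other experiment it had 50.1, 49.5 and 65.6 with no odor, 385.1, 355.4 and 315.2 at 1%, and 196.0, 323.6 and 333.9 at 100%, log2 fold changes of 2.64 ± 0.27 and 2.28 ± 0.29. Between the concentrations that shared litters, both genes were higher at 0.1 than at 0.01% TMT, Olfr186 by 1.48 ± 0.26 on the log2 scale (edgeR adjusted p = 0.000389) and Olfr196 by 1.26 ± 0.27 (edgeR adjusted p = 0.00322). Both genes were known as TMT responders when the range was chosen, and no other member was called here. They were 2 of the 5 ORs that differed in this contrast (0.46% of ORs higher and 0% lower). Without litter 1, 1 of them was called, Olfr186.

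Olfr177, a MOR184 receptor, was the third member that rose at 0.1% TMT (log2 fold change 1.29 ± 0.33, edgeR adjusted p = 0.00854). Its counts at 0.1% were 140.4, 80.2 and 35.5 against 26.8, 28.8 and 37.6 with no odor, so the groups overlapped through litter 3. The call was lost without litter 1, without litter 2, without the litter block, with DESeq2 and with a filter on low counts. At 1% TMT the gene had 189.9, 211.8 and 149.6 against 31.9, 43.04 and 21.9, without overlap (2.47 ± 0.32).

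At 1% TMT, 5 of the 8 MOR183 genes rose (Olfr186, Olfr187, Olfr191, Olfr193 and Olfr196), 2 of the 7 MOR184 genes (Olfr173 and Olfr177), 1 of the 10 MOR182 genes (Olfr205) and 1 of the 3 MOR273 genes (Olfr170). The largest change among the members was that of Olfr173, whose counts were 33.4, 25.8 and 17.0 with no odor and 224.6, 187.5 and 173.5 at 1% (log2 fold change 2.89 ± 0.33, edgeR adjusted p = 5.96e-16). Olfr187 had 21.3, 21.5 and 43.8 with no odor and 219.3, 132.0 and 173.5 at 1% (2.60 ± 0.34). Neither gene's libraries overlapped between the groups. Olfr205 changed by 1.42 ± 0.27, Olfr170 by 1.23 ± 0.26, Olfr193 by 1.49 ± 0.42 and Olfr191 by 0.98 ± 0.32 (edgeR adjusted p = 0.0425). The calls of Olfr191 and Olfr193 were lost with DESeq2, without scaling beyond total OR counts, and without litter 1 or 2.

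Olfr173, Olfr187 and Olfr170 also differed between the 2 experiments in the size of their responses. On the log2 scale the response at 1% TMT, against its own no odor litters, exceeded that at 0.1% TMT by 2.39 ± 0.52 for Olfr173 (edgeR adjusted p = 0.00371), by 2.21 ± 0.50 for Olfr187 (edgeR adjusted p = 0.00473) and by 1.40 ± 0.37 for Olfr170 (edgeR adjusted p = 0.023). At 0.1% TMT Olfr173 had 66.0, 32.7 and 31.0 against 33.6, 30.1 and 26.5 with no odor, and Olfr187 had 37.9, 57.9 and 51.4 against 29.5, 32.7 and 50.2. Olfr170 had 106.7, 117.4 and 109.0 against 123.5, 132.0 and 115.7. In this contrast 1.29% of all ORs were higher and 0.0919% lower. Without litter 1 of both experiments 1 member was called (Olfr173), and without litter 2 1 (Olfr187). With scaling by total OR counts alone, Olfr170 lost its call and Olfr173 and Olfr187 kept theirs. Each concentration step across the 2 experiments also changes the litters, and only the difference of responses takes the own no odor libraries into account.

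At 100% TMT more genes of the same 4 families passed the test. Of MOR184, 6 of 7 genes rose (all but Olfr172), of MOR183 5 of 8, of MOR182 5 of 10 and of MOR273 3 of 3, while the 3 single genes of MOR270 to MOR272 did not pass the test. By position, 3 of the 6 genes of Olfr166 to Olfr171 rose and 16 of the 27 of Olfr172 to Olfr209. The largest changes were those of Olfr196 (2.28 ± 0.29), Olfr186 (2.13 ± 0.29), Olfr173 (2.13 ± 0.39), Olfr177 (2.06 ± 0.35), Olfr178 (2.02 ± 0.49) and Olfr199 (1.99 ± 0.45). Among the 14 members that did not pass, the fitted values ran from -0.92 ± 0.71 for Olfr198 to 1.11 ± 0.43 for Olfr202 (edgeR adjusted p = 0.0588). Olfr166, Olfr167 and Olfr168, each among the most abundant members, had values of 0.09 ± 0.27, 0.27 ± 0.27 and -0.25 ± 0.27. DESeq2 called 15 members, and 17, 12 and 13 were called without litters 1, 2 and 3. The calls of Olfr169, Olfr193, Olfr201 and Olfr203 were lost with DESeq2, with scaling by total OR counts alone, and without litter 2 or 3. Those of Olfr169 and Olfr193 were also lost without litter 1. Without litter 2 the calls of Olfr187, Olfr199 and Olfr205 were lost too, and without litter 3 those of Olfr181 and Olfr195. Olfr202 was called with the likelihood ratio test and with a filter on low counts. Scaling by total OR counts alone left 15 higher members and 0 lower ones, while it moved the split over all ORs from 126 higher and 36 lower to 105 and 101.

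**Figure D3:**
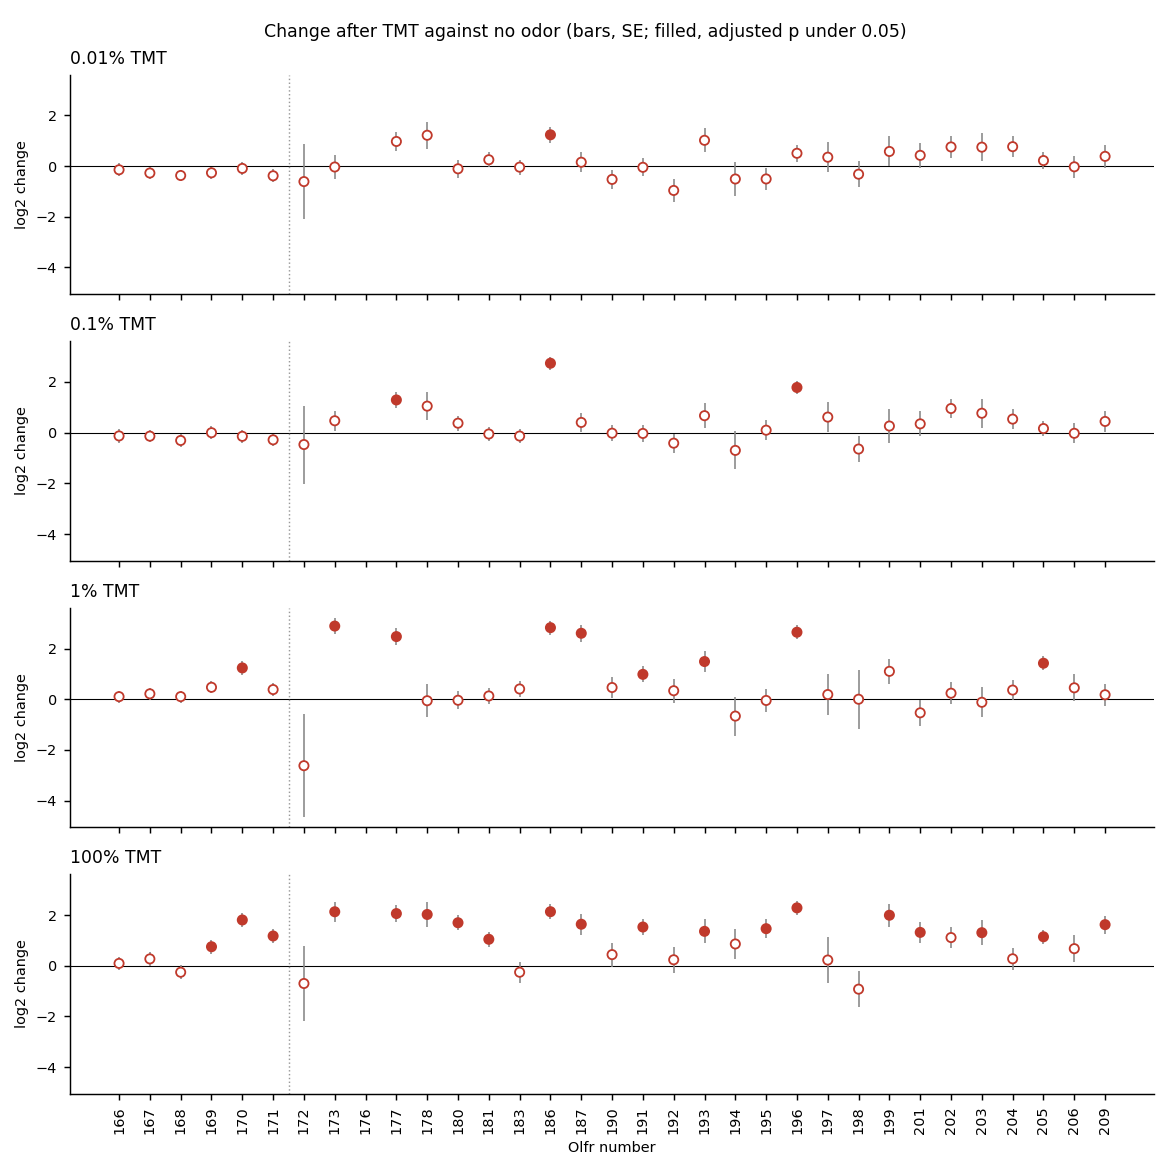
Log2 fold change of each member but Olfr176 against no odor at the 4 TMT concentrations, in number order, with error bars of 1 SE and filled symbols for an edgeR adjusted p under 0.05. At 100% TMT 19 members are filled and all of these lie above 0, while Olfr166, Olfr167 and Olfr168 lie between -0.25 and 0.27.

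Since 1 and 100% TMT shared litters, these 2 concentrations were compared directly, and 8 members were higher and 0 lower at 100% (6.34% and 1.75% of all ORs). The 0 depended on the scaling: by total OR counts alone, 7 members were higher and 2 lower (Olfr186 and Olfr187). With TMM scaling the 8 higher members were Olfr178 (2.12 ± 0.48), Olfr201 (1.94 ± 0.43), Olfr180 (1.81 ± 0.30), Olfr195 (1.57 ± 0.37), Olfr209 (1.49 ± 0.35), Olfr203 (1.45 ± 0.49, edgeR adjusted p = 0.0486), Olfr181 (0.95 ± 0.29) and Olfr171 (0.83 ± 0.26). Of these 8, 4 are MOR184 genes and 3 are MOR182 genes. The call of Olfr203 was lost with DESeq2, with scaling by total OR counts alone, with a filter on low counts, without the litter block and without litter 1 or 3. That of Olfr171 was lost with DESeq2, without the litter block and without litter 3. Olfr180 is an example: it had 74.4, 40.9 and 80.2 normalized counts with no odor, 56.2, 53.3 and 81.8 at 1%, and 156.8, 209.5 and 301.1 at 100%. Its 1% libraries overlapped with those of no odor, and all 3 libraries of 100% lay above both. Of the 50-base words of Olfr180, 15.7% also occur in transcripts of other genes, among them Olfr178, Olfr181 and Olfr195, and the gene overlaps Olfr181. Reads may thus have been assigned to any of these higher members. Olfr178 had 10.6, 25.8 and 14.6 with no odor, 18.7, 15.1 and 15.96 at 1% and 57.8, 70.5 and 82.1 at 100%.

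The members with the largest responses at 1% had lower fitted values at 100% than at 1% TMT, but none passed the test with TMM scaling and all libraries, while Olfr186 and Olfr187 passed it with scaling by total OR counts alone. At an unadjusted p under 0.05, 3 members were lower at 100%, and DESeq2 called 0. The difference was -0.90 ± 0.31 for Olfr187 (edgeR adjusted p = 0.0595), -0.70 ± 0.26 for Olfr186 (edgeR adjusted p = 0.0834) and -0.70 ± 0.31 for Olfr173 (edgeR adjusted p = 0.19). All 3 libraries of Olfr186 at 100% (251.7 to 266.4) lay below all 3 at 1% (291.2 to 495.4), and the same held for Olfr187 (57.8 to 120.4 against 132.0 to 219.3) and Olfr173 (105.2 to 133.2 against 173.5 to 224.6). Without litter 2 the call of lower was made for Olfr187, and without litter 3 for Olfr186, while the members called higher then numbered 7 and 4.

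Near-identical members did not all carry the same values. Olfr205 rose at 1% (1.42 ± 0.27) and at 100% TMT (1.14 ± 0.29), while its neighbor Olfr204 had 0.36 ± 0.38 and 0.28 ± 0.44. Olfr204 counts at 100% were 59.8, 64.3 and 40.1, against 28.9, 51.7 and 53.5 with no odor, and those of Olfr205 were 101.1, 215.7 and 240.9 against 60.8, 64.6 and 111.8. Olfr203 had 35.1, 64.3 and 65.7 at 100% against 30.4, 10.8 and 21.9 (1.31 ± 0.49, edgeR adjusted p = 0.0495), and Olfr194 had 33.0, 10.4 and 45.6 against 9.11, 12.9 and 24.3 (0.86 ± 0.59). The call of Olfr203 was lost with DESeq2, with scaling by total OR counts alone, without the litter block and without litter 2 or 3. Differences between the members of a pair were not tested, and reads shared between them may have been assigned to either.

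ACT was compared in the same way. At an adjusted p under 0.05 in edgeR's quasi-likelihood test, 0 of the 33 members changed at 0.01, 0.1, 1 or 100% ACT. Among all ORs 0, 0.643, 1.65 and 0% changed in either direction. The 0% at 100% ACT changed under some other settings: 82 ORs were higher and 5 lower without litter 1, 37 and 6 with the likelihood ratio test, and 22 and 1 with DESeq2. The study itself reported enriched ORs at every ACT concentration, so a lack of calls here is not read as a lack of response. The peer review printed with the paper names Olfr166 and Olfr196 among the best ACT responders of an earlier pS6-IP-Seq study. At an unadjusted p under 0.05, 1, 0, 2 and 4 members were higher and 0, 0, 1 and 0 lower. DESeq2 called 0 members at each concentration, and the likelihood ratio test called 0 at the 3 lower ones and 2 at 100%, Olfr199 and Olfr209. At 100% ACT these 2 MOR182 genes had log2 fold changes of 1.60 ± 0.44 (edgeR adjusted p = 0.125) and 1.63 ± 0.42 (edgeR adjusted p = 0.0993). Olfr199 had 74.4, 67.0 and 84.4 normalized counts at 100% ACT against 19.3, 35.4 and 19.0 with no odor, and Olfr209 had 127.6, 70.9 and 146.0 against 21.7, 33.8 and 51.3, without overlap in either gene.

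The single libraries that stood apart show in the counts of the TMT responders. At 1% ACT, Olfr186 had 641.4 in litter 1 but 92.3 and 53.8 in litters 2 and 3, against 72.2, 75.5 and 89.3 with no odor. Olfr196 had 553.8, 101.4 and 46.3 against 45.7, 70.7 and 81.7, and Olfr173 had 328.3, 41.6 and 19.4 against 43.3, 54.7 and 26.6. In each of these genes the value of litter 1 lay far above the no odor range and that of litter 3 did not exceed it. The value of litter 2 also exceeded the no odor range in Olfr186 and Olfr196, by less, but not in Olfr173. At 0.01% ACT, Olfr186 had 483.9, 70.5 and 102.7 against 106.8, 86.6 and 68.5, and Olfr196 had 538.6, 72.03 and 57.4 against 82.7, 78.9 and 56.5. At 0.1% ACT, measured with the same no odor libraries, Olfr186 had 71.6, 69.4 and 72.3, close together and within the no odor range. Without litter 3 at 1% ACT, 3 members were called (Olfr186, Olfr193 and Olfr196), and without litter 1 or litter 2 none was. Between the concentrations of ACT, 0 members differed in any of the 3 contrasts in edgeR's quasi-likelihood test (0% of ORs in each) or in DESeq2, which called 1 OR higher and 1 lower between 0.1 and 0.01% and 16 higher and 3 lower between 100 and 1%. At an unadjusted p under 0.05 in the former, 3 were lower at 0.1 than at 0.01%, 4 were higher at 100 than at 1%, and 1 had a larger response at 1 than at 0.1%.

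**Figure D4:**
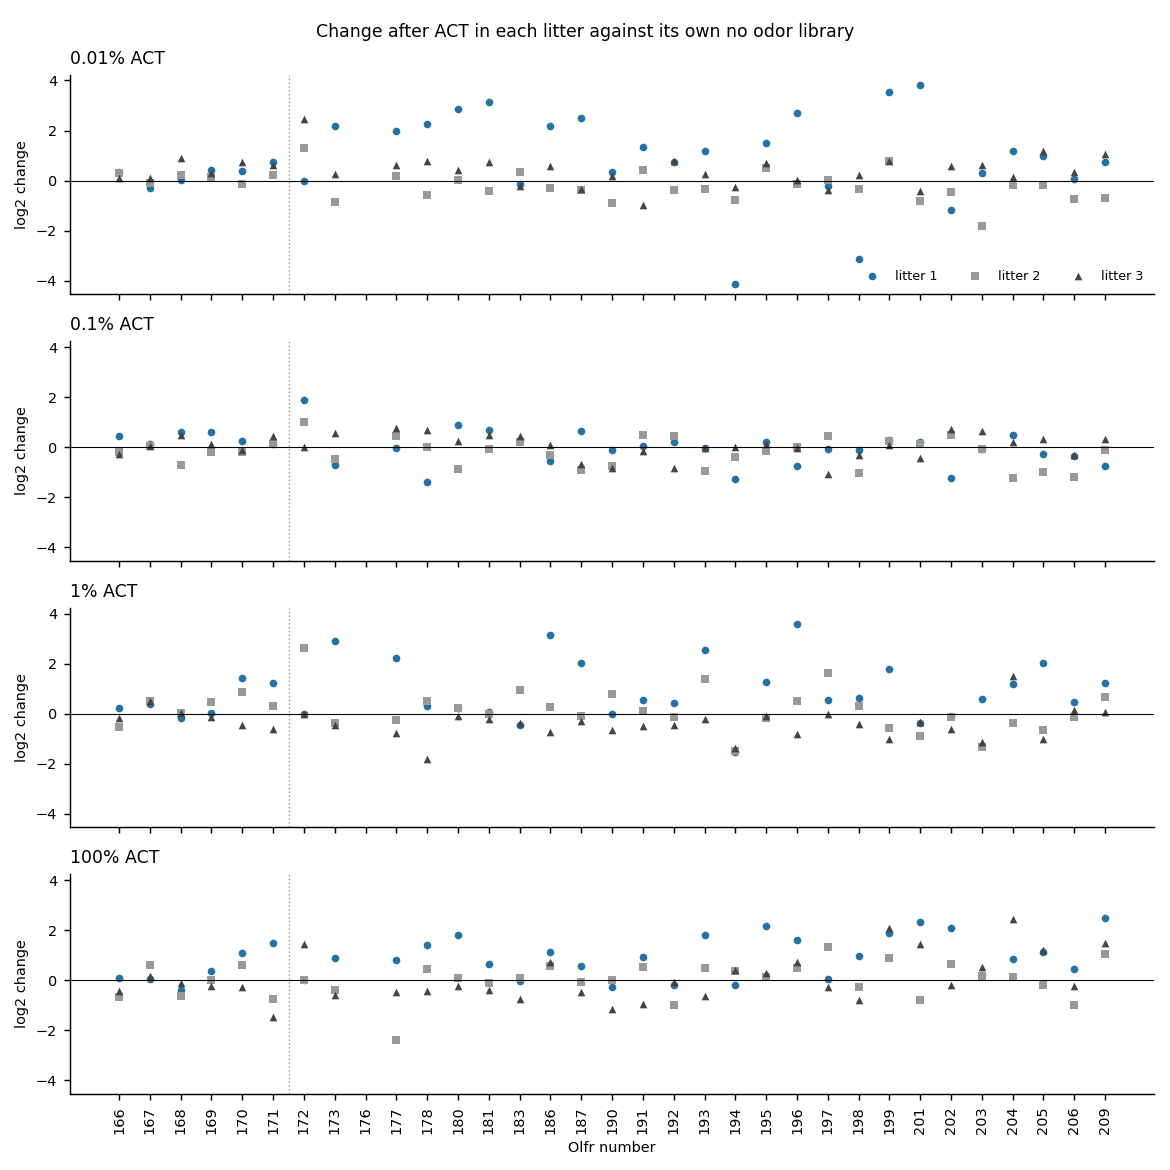
Change of each member but Olfr176 in each litter at the 4 ACT concentrations, as the log2 ratio of normalized counts plus 1 against the no odor library of the same litter. At 0.01 and 1% ACT, the points of litter 1 of TMT responders such as Olfr173, Olfr186 and Olfr196 stand well above 0, and those of litters 2 and 3 lie far lower.

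The responses to the 2 odorants were compared at matched concentrations, each against its own no odor litters, in a fit of all 36 pS6-IP libraries. With all libraries, 0 members differed at 0.01, 0.1, 1 or 100% (0, 0.46, 0 and 0% of ORs). At an unadjusted p under 0.05, 2 members had the larger response to ACT at 0.01%, and 2, 4 and 7 had the larger response to TMT at 0.1, 1 and 100%. DESeq2 called 0, 1, 0 and 2 members at the 4 concentrations. The largest were Olfr186 at 0.1% (2.95 ± 0.78 on the log2 scale, edgeR adjusted p = 0.143) and Olfr177 at 100% (2.76 ± 0.77, edgeR adjusted p = 0.131).

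These values changed when the 2 ACT libraries of litter 1 were left out, an alternative chosen after the libraries had been seen to stand apart. The response to TMT was then larger for 2 members at 0.1% (Olfr186 by 2.98 ± 0.43 and Olfr196 by 2.02 ± 0.44) and for 6 at 1% (Olfr173, Olfr177, Olfr186, Olfr187, Olfr196 and Olfr205). At 1% the difference was 3.06 ± 0.64 for Olfr173, 2.92 ± 0.49 for Olfr186 and 2.55 ± 0.50 for Olfr196 (edgeR adjusted p = 0.00163, 9.9e-05 and 0.00062). At 100%, where neither library enters the ACT group itself, 2 members differed (Olfr177 by 2.54 ± 0.61 and Olfr173 by 2.13 ± 0.59). Without litter 1 of all groups, 1, 5 and 7 members differed at 0.1, 1 and 100%, and without litter 2 or 3 none did. Without only the library of litter 1 at 1% ACT, 4 members differed at 1% (Olfr173, Olfr186, Olfr187 and Olfr205).

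Finally, the dorsal and the ventral mucosa were compared to ask where in the nose the members are expressed. The members held 0.384, 1.15 and 0.282% of OR counts in the 3 dorsal libraries and 4.88, 4.75 and 4.67% in the 3 ventral ones (155319 to 242123 OR counts per library). In dorsal tissue 23 of the 33 members were lower and 0 higher (37.2% and 37.4% of ORs, and 0 members were higher at an unadjusted p under 0.05 or with DESeq2), with a median log2 difference, dorsal minus ventral, of -2.31 over the members and -0.65 over all ORs. All 6 genes of Olfr166 to Olfr171 were lower in dorsal tissue, and 17 of the 27 of Olfr172 to Olfr209. The number of members called fell to 13 without the libraries numbered 1 and to 14 without those numbered 3.

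The largest differences were those of Olfr170 (-5.22 ± 0.82), Olfr190 (-5.15 ± 0.87), Olfr169 (-5.14 ± 0.82) and Olfr171 (-4.92 ± 0.76), each with an edgeR adjusted p between 0.000159 and 0.000234. Olfr170 had 0.505, 1.25 and 6.77 normalized counts in the dorsal libraries and 76.8, 85.2 and 83.2 in the ventral ones. Olfr190 had 1.01, 9.98 and 18.3 against 262.3, 321.3 and 205.6. The groups did not overlap in either gene. Olfr186 was lower in dorsal tissue (20.2, 49.3 and 8.80 against 109.3, 102.0 and 105.3, log2 difference -2.31 ± 0.65), whereas Olfr196 did not pass the test (25.3, 49.9 and 11.5 against 54.9, 55.1 and 54.9, -1.14 ± 0.62, edgeR adjusted p = 0.108). The other 9 members that did not pass were Olfr173, Olfr176, Olfr178, Olfr194, Olfr197, Olfr198, Olfr201, Olfr202 and Olfr203. Of these 10, 5 are MOR182 genes, and 0 are of Olfr166 to Olfr171.

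The tissue labels were checked with 3 ORs of the dorsal zone (Olfr160, Olfr16 and Olfr73) and 3 of the ventral zone (Olfr1507, Olfr1508 and Olfr17), and all 6 lay on the labelled side in each library. The 3 dorsal genes summed to 443.9 to 841.4 normalized counts in dorsal libraries and 41.3 to 68.4 in ventral ones. The 3 ventral genes summed to 95.96, 188.9 and 230.2 in dorsal libraries 1, 2 and 3 and to 736.8 to 1752 in ventral ones, so no marker was at 0 on the other side. The second dorsal library held the highest dorsal value of many members, for instance 218.2 for Olfr166 beside 20.7 and 40.6 in the others and 759.7 to 864.7 in ventral libraries. The part that a mixture of tissue plays in these values was not tested.

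**Figure D5:**
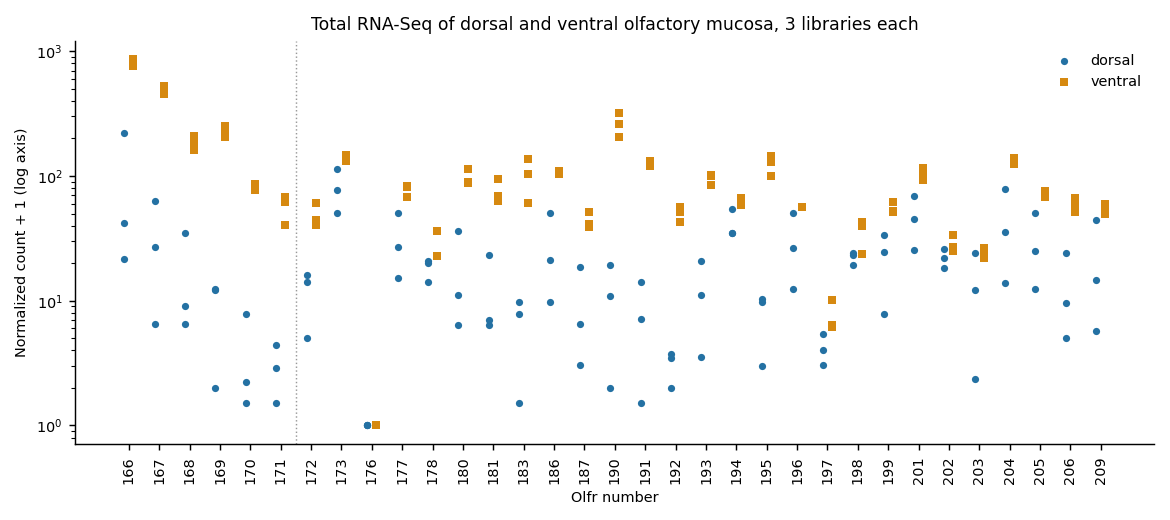
Normalized count plus 1 (log axis) of each member in the 3 dorsal and the 3 ventral libraries, in number order, with the dotted line between Olfr171 and Olfr172. The dorsal and ventral points lie far apart in Olfr166 to Olfr171 and overlap or nearly touch in members such as Olfr173, Olfr194 and Olfr202.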

How the data were processed

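The deposited values were expected counts, which the authors obtained by aligning reads to GRCm38 with STAR and counting them with RSEM on an annotation in which ORs carry their untranslated regions, then rounding to whole numbers and keeping intact ORs. Libraries were made without strand information. Since the tables hold intact ORs alone, TMM scaling used the OR counts of each table. Each odor group was compared with its no odor libraries by edgeR 4.0.16 (R 4.3.3, glmQLFit with robust, glmQLFTest), with no filter on low counts, the litter as a block and Benjamini-Hochberg adjustment over all intact ORs. Contrasts between concentrations used 1 fit of the 18 libraries of an odorant, and contrasts between odorants 1 fit of all 36. SEs were the log2 fold change divided by the square root of F. With expected counts split among near-identical ORs, the values of close paralogs are not independent.

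Same-numbered pS6-IP libraries are littermates by the study's methods. The mean correlation of their deviations from group means was 0.038 to 0.247 over 12 pairs of groups, against -0.123 to -0.019 for different numbers, and exceeded 0.1 for each of the 3 numbers in 2 pairs. For the dorsal and ventral libraries the study's code uses the number as a block, but what it marks is not given in the sources used here, and the mean correlation was -0.265 for the same number and 0.136 for different numbers. In both kinds of libraries, deviations from a group mean cancel out within the group. The values for different numbers therefore largely follow from those for the same number and are no separate check.

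Alternatives were the likelihood ratio test, DESeq2 1.42.0, RLE size factors, no scaling beyond totals, a filter on low counts, no block, and leaving out each litter. Members named were Olfr186 and Olfr196 with their neighbors, those called in an odor comparison or contrast, the 4 largest dorsal and ventral differences, the 3 highest and lowest in no odor libraries, and the extremes of each comparison. Near-identical pairs were chosen after their values were seen. The range of members and the lists were chosen with earlier results of these data known. Gene positions and sequences came from GENCODE M21 and GRCm38, and MOR names from RefSeq synonyms.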

Additional observations from a re-analysis of the deposited data

Results flagged for a closer look

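The responses of 3 members to TMT differed between the 1% and the 0.1% experiment by a test of the difference itself. The log2 response at 1% minus that at 0.1% was 1.40 for Olfr170, 2.39 for Olfr173 and 2.21 for Olfr187 (edgeR adjusted p = 0.023, 0.00371 and 0.00473). Leaving out a litter left 1 to 3 such members, and scaling by total OR counts alone left 2, without Olfr170. The 2 concentrations were given to different litters, and what part the litters have in the difference was not tested.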

How the results depend on the processing

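The count of members called moved by over 1.5 times, or to or from 0, in 32 of 190 counts recomputed, and did not in the other 158. The 158 include counts of 0 that stayed 0, such as all of those at 0.01 and 0.1% ACT, so they are no measure of how stable the calls were. No gene result called in the main fit changed direction when recomputed, and the direction of results without a call was not checked. Of 663 recomputed gene results, 93 lost their call. The 663 include changes per litter with another pseudocount, which carry no call to lose. The 1 member called at 0.01% TMT became 0 with the likelihood ratio test, with DESeq2, with RLE factors and without the replicate block. The 0 called at 100% ACT became 2 with the likelihood ratio test, and the 0 called between 100 and 1% ACT became 1 without litter 1 of 0.01% ACT, alone or with litter 1 of 1% ACT. For TMT minus ACT at 0.1%, the main 0 became 1 with DESeq2, with no scaling beyond totals, without litter 1 of 0.01% ACT and without litter 1 of 1% ACT, and 2 without both. At 1%, it became 4 without litter 1 of 1% ACT and 6 without both. At 100%, it became 2 with DESeq2, 1 without litter 1 of 0.01% ACT and 2 without both. Leaving out each replicate in turn gave 0 to 3 members at 1% ACT, 0 at 0.01% TMT, 2 to 3 at 0.1%, 7 to 9 at 1% and 12 to 17 at 100% TMT, and 13 to 24 between dorsal and ventral tissue. It gave 0 to 1 between 100 and 1% ACT, 1 to 2 between 0.1 and 0.01% TMT, 5 to 8 between 100 and 1% TMT, 1 to 3 for the response at 1 minus 0.1% TMT, and 0 to 1, 0 to 5 and 0 to 7 for TMT minus ACT at 0.1, 1 and 100%. Without the replicate block, 2, 8 and 18 members rose at 0.1, 1 and 100% TMT, 6 between 100 and 1% TMT, and 23 were lower in dorsal tissue.

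Scaling by totals alone shifted the median log2 fold change of all ORs by -0.21 at 1% TMT, -0.24 at 100% TMT and -0.59 for dorsal minus ventral, and RLE factors shifted the last by 0.26. Between tissues the calls over all ORs went from 407 higher and 404 lower to 378 and 482 without scaling. With 37012 to 128805 OR counts a library, changes of members with few reads, such as Olfr172, were not detectable. The causes of these changes were not tested.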
